A study of Homo sapiens with 12 samples.

Results

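The genes described here encode proteins that hepatocytes make and secrete into blood plasma: carrier proteins, clotting factors and their inhibitors, complement components, and acute phase proteins. The 54 genes were a list of symbols, and were placed with the GENCODE release 44 annotation of hg38, out of 20033 protein-coding genes on chromosomes 1 to 22, X and Y. By role, 18 encode carriers and other plasma proteins, 16 act in coagulation, its inhibition or fibrinolysis, 16 act in complement, and 4 are acute phase proteins or the iron hormone hepcidin. The cells were Huh7, an established human hepatocellular carcinoma line, labelled as wild type and untreated. Chromatin was profiled by CUT&Tag, in which an antibody brings a transposase to its target and the enzyme tags the DNA nearby, once with an antibody to HSF1 and once with an antibody to acetylated lysine 27 of histone H3 (H3K27ac). Each antibody had 1 library, so no value below has a replicate check and no test between conditions was possible.

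HSF1 is the transcription factor that switches on chaperone genes when proteins misfold, through inverted repeats of the bases GAA, and in tumour cells it is known to occupy many other promoters as well. H3K27ac marks active promoters and enhancers. Liver plasma protein genes are classical examples of tissue-specific genes: most of their promoters lack a CpG island, and many are driven by the hepatocyte factors HNF1 and HNF4. Housekeeping genes, such as those for ribosomal proteins and the proteasome, usually start within CpG islands and are active in nearly every cell. The comparison below asks whether HSF1 peaks lay at starts of both kinds.

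A gene was counted as having HSF1 at its start when the summit of a peak, its highest point, lay within 1 kb of any annotated transcript start. Pileup counts the extended tags that cover the summit, and fold enrichment sets it against the local background of the same library. The HSF1 library gave 7147 peaks from 2712212 tags kept after duplicate removal, and the H3K27ac library gave 1299 peaks from 896393 kept tags, which were 5.7% of its total. Heights were not compared between the libraries. Peak lists do not show expression, and the RNA-seq of the series was not analysed here. Marker genes did not check the cell type in these lists. HSF1 summits lay at the starts of 2 of 8 hepatocyte markers (APOB and HNF4A), or 25% (7.15% to 59.1%), close to the share of all protein-coding genes given below. They lay at 0 of 4 leukocyte, 0 of 3 endothelial and 1 of 4 stellate and fibroblast markers (COL1A1), numbers too small to tell from that share. In gene bodies with 20 kb on both sides they were at 2 of 8 hepatocyte (25%) and 2 of 4 leukocyte markers (50%). In the same windows they were at 0 of 3 endothelial and 3 of 4 stellate and fibroblast markers (75%). The share over all protein-coding genes was 42.4%, and these lists are too small to tell from it. None of the markers had an H3K27ac summit at a start.

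The hg38 sequences under 6 HSF1 summits and before 3 starts without one are shown as examples. They do not stand for how often a motif occurs, which is counted over all 13 summits and all promoters further on. Each is written 5′ to 3′ on the strand of its gene. Capitals mark matches on either strand to CCAAT (the NF-Y box), TATAAA (the box that the TATA-binding protein recognises), CAAAGTCCA with at most 1 mismatch (an HNF4-type site) or CCGGAAG (an ETS-type site). The stretch at C5 (chr9:121074755-121074895) is a GC-rich start that this complement gene shares with CNTRL, and its match is to CCGGAAG. The stretch at F10 (chr13:113122751-113122823) reaches into the first exon, and that at ORM1 (chr9:114322894-114323034) lies before the gene, and each has 1 match to CAAAGTCCA. The stretch at AMBP (chr9:114078335-114078535) holds 4 matches to CCAAT and was added to the set after these were counted. The stretches at AGT (chr1:230714189-230714329) and F5 (chr1:169586478-169586618) hold none of the motifs. TTR (chr18:31591757-31591896), TF (chr3:133746273-133746412) and SERPINC1 (chr1:173917308-173917447) had no summit at a start. The stretches at TTR and TF hold CCAAT, the one at TTR also holds TATAAA, and the one at SERPINC1, the antithrombin gene, holds none of the motifs.
C5: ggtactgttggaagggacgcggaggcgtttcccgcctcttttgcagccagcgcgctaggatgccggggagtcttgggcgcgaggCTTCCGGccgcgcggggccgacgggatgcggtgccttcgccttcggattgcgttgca
F10: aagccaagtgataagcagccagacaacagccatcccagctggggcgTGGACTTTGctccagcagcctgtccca
ORM1: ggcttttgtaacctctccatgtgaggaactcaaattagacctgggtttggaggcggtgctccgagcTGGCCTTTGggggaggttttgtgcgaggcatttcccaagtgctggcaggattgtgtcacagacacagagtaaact
AMBP: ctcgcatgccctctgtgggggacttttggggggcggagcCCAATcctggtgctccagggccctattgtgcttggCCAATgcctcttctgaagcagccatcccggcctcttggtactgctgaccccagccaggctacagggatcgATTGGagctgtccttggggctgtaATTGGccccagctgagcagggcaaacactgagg
AGT: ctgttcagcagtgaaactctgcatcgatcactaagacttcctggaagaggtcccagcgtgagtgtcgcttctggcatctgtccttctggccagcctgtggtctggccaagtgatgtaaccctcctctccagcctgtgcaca
F5: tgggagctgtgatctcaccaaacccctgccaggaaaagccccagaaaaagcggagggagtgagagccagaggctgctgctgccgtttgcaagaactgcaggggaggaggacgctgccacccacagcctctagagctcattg
TTR: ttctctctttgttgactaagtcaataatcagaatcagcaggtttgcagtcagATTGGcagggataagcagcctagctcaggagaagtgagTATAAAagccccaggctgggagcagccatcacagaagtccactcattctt
TF: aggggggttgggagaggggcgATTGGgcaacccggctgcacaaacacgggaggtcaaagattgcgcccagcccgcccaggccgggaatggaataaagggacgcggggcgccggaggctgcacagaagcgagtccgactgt
SERPINC1: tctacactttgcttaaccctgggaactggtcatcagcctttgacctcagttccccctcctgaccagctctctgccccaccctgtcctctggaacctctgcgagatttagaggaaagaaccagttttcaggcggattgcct

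HSF1 summits lay at the starts of 10 of the 54 plasma protein genes, or 18.5% (95% Wilson interval 10.4% to 30.8%). Over all protein-coding genes the share was 25.4%, or 5098 of 20033 (24.8% to 26.1%), so the share of the plasma protein genes was lower by 6.93 percentage points and its interval included the background. The direction turned when genes with a start of another gene within 1 kb were left out: the share was then 20% of 40 plasma protein genes against 16.7% of all such protein-coding genes. The genes were AMBP, AGT and ORM1 among the carriers, F2, F5, F10 and PROS1 in coagulation, and C3, C5 and SERPING1 in complement. By role the shares were 3 of 18 carriers (16.7%, 5.84% to 39.2%), 4 of 16 coagulation genes (25%, 10.2% to 49.5%), 3 of 16 complement genes (18.8%, 6.59% to 43%) and 0 of 4 acute phase genes (Wilson interval 0% to 49%). For the acute phase genes the limit of 3 of the total is 75%, which is coarse for so few genes. The intervals of the roles overlapped each other widely. Intervals treat genes as the units and cover counting error only.

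**Figure D1:**
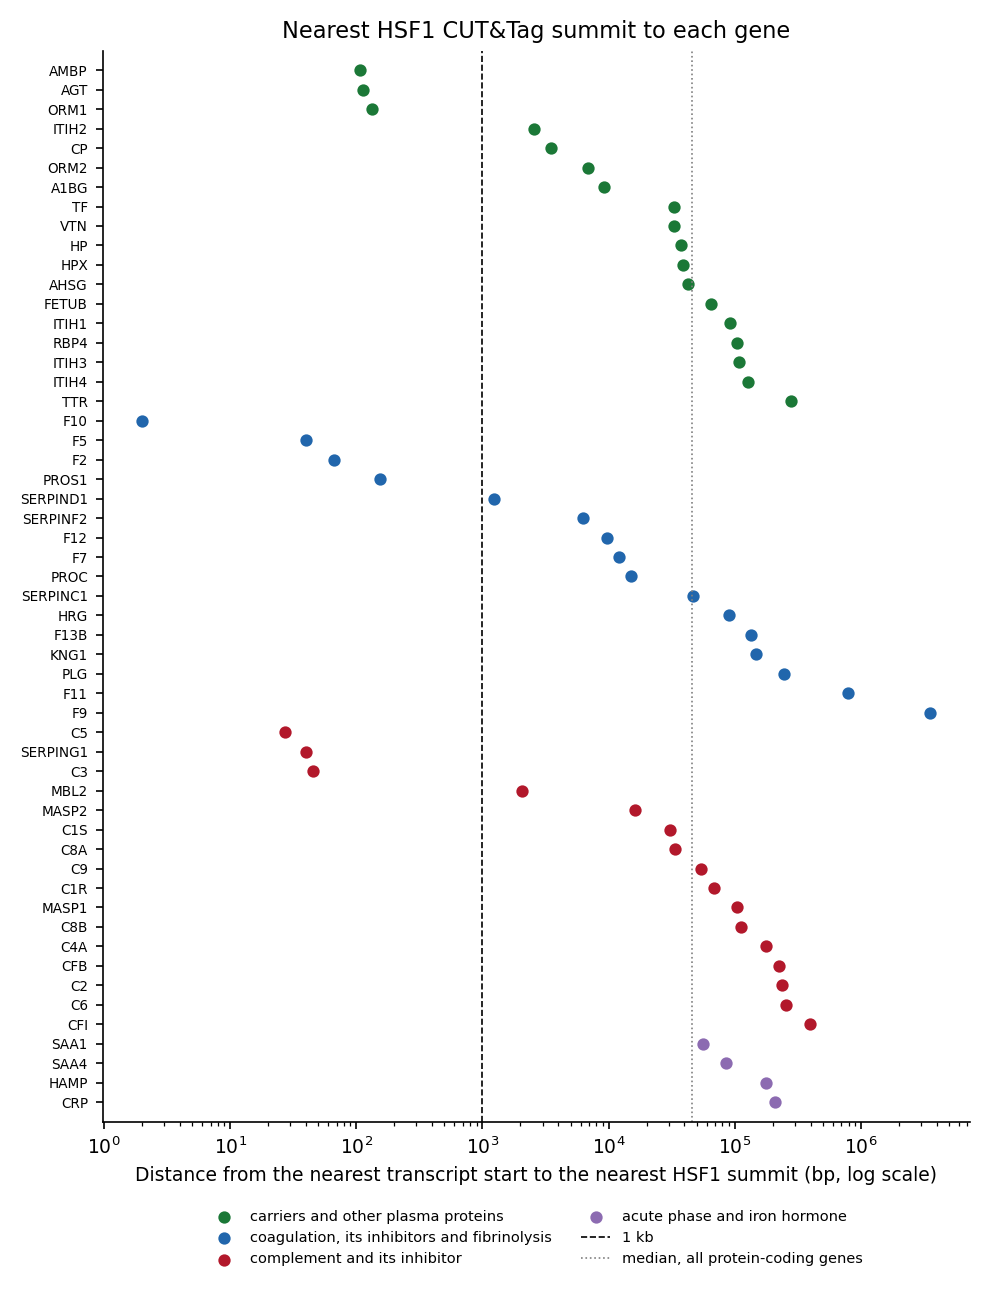
Distance in bp, on a log axis, from the nearest annotated transcript start of each of the 54 genes to the nearest HSF1 CUT&Tag summit, coloured by role. The 10 genes left of the dashed line at 1 kb lie at 2 to 155 bp, SERPIND1 follows at 1238 bp, and the dotted line is the median over all protein-coding genes, 45.7 kb.

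Around these 10 genes lay 13 HSF1 peaks. Of the 13, 11 had no start of another gene within 1 kb, and 9 of the 10 genes had at least 1 such peak. C5 was the exception. The same counts were not made for the 4424 HSF1 peaks at coding gene starts, so whether these are usual was not tested.

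Among the carriers, AGT had the highest fold enrichment. AGT encodes angiotensinogen, the substrate of renin, and its peak (chr1:230714172-230714625) had a summit 137 bp upstream of the canonical start, a pileup of 17 and a fold enrichment of 8.33. ORM1 encodes orosomucoid, an acute phase carrier of drugs and lipids. Its peak (chr9:114322856-114323083) had a summit 134 bp upstream of the start, a pileup of 11 and a fold enrichment of 6.59. The neighbouring paralogue ORM2 had no summit within 1 kb, and the nearest one, 6905 bp away, was that of ORM1. The promoters of ORM1 and ORM2, from 250 bp before to 50 bp after the start, were identical at 300 of 300 bases, and the ORM1 peak lies wholly within this stretch. How tags that match both copies were placed is not given in the sources used here, so whether the peak belongs to 1 of these genes or to both was not tested. AMBP encodes the precursor of alpha-1-microglobulin and bikunin, and its peak (chr9:114078283-114078563) had a summit 135 bp upstream of the canonical start. That peak had the highest pileup of the 13, 22, but a fold enrichment of 4.94, and a further summit 4251 bp upstream had a pileup of 18 and a fold enrichment of 4.26.

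In coagulation, 4 of 16 genes had summits (25%), near the share of 25.4% over all protein-coding genes. F10 encodes factor X, the protease that activates prothrombin, and its summit lay 22 bp downstream of the canonical start in the 5′ UTR (chr13:113122695-113122981), with a pileup of 13 and a fold enrichment of 6.93. F5 encodes factor V, the cofactor of activated factor X. The F5 summit lay 67 bp upstream of the canonical start (chr1:169586419-169586713), with a pileup of 10 and a fold enrichment of 6.88. F2, which encodes prothrombin, had 2 peaks. The nearer one (chr11:46719044-46719387) had its summit 84 bp upstream of the canonical start and a fold enrichment of 5.74, and the other (chr11:46718315-46718687) had its summit 700 bp upstream and a fold enrichment of 6.2, with pileups of 13 and 14. PROS1 encodes protein S, a cofactor of activated protein C that limits clotting. Its higher peak (pileup 17, fold enrichment 8.57) lay 155 bp upstream of an alternative start and 6262 bp upstream of the canonical one. Its lower peak (chr3:93973247-93973446, pileup 8, fold enrichment 4.89) lay in an intron 480 bp downstream of the canonical start.

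In complement, C3 and C5 encode the components that are cleaved in turn to start the terminal pathway, and SERPING1 encodes the C1 inhibitor. The C5 peak (chr9:121074628-121075014) had the highest fold enrichment of the 13, 8.8, with a pileup of 18. It lay 24550 bp upstream of the canonical C5 start, at an alternative start 27 bp away, and a CNTRL start lay 55 bp from the summit. C3 had 2 peaks, both low. The one 76 bp upstream of the canonical start (chr19:6720606-6720805) had a pileup of 5 and a fold enrichment of 4.23, the lowest values of the 13. The other (chr19:6730316-6730704) lay 9856 bp upstream, at an alternative start inside an intron of GPR108, with a pileup of 8 and a fold enrichment of 5.49. The SERPING1 summit lay in a coding exon 626 bp downstream of the canonical start and 40 bp from an alternative one (chr11:57598180-57598379, pileup 11, fold enrichment 5.36). The HSF1 summit nearest to C4A was 177 kb away. Its promoter and that of C4B, the copy that is not among the 54, were identical over 300 of 300 bases, so tags that lie within this stretch could not be told apart.

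Peaks at these genes were of ordinary to low height. The 13 peaks had a median fold enrichment of 6.2 (quartiles 5.36 and 6.93), against 7.14 (6.16 and 8.62) for the 4424 HSF1 peaks at starts of protein-coding genes. Their median percentile among those 4424 was 26.4 for fold enrichment and 41.2 for pileup. By fold enrichment, C5, PROS1 and AGT were above the median of all coding gene starts, and the other peaks were below it. By pileup, AMBP joined C5, PROS1 and AGT above the median. Of the 9 genes with a summit near the canonical start, 7 had it within 200 bp (77.8%, against 63.8% of 4571 protein-coding genes) and 6 had it upstream (66.7% against 79.9%).

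**Figure D2:**
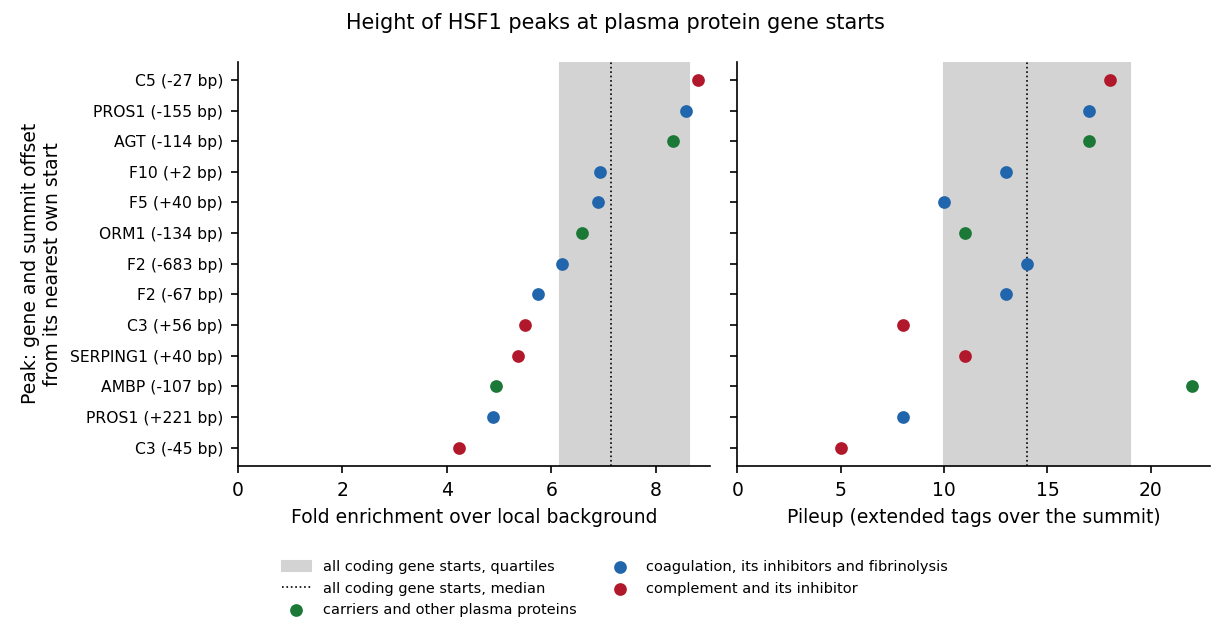
Fold enrichment (left) and pileup (right) of the 13 HSF1 peaks at plasma protein gene starts, 1 point per peak, labelled with the gene and the offset of the summit from its nearest own start (negative is upstream). The grey band spans the quartiles and the dotted line the median of the 4424 HSF1 peaks at coding gene starts, and 10 of the 13 points lie below the median in fold enrichment.

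The 4 genes counted in the acute phase group, which does not include ORM1, and 15 of the 18 carriers had no HSF1 summit at a start. CRP, the main human acute phase protein, was 211 kb from the nearest summit, HAMP, the gene of hepcidin, 176 kb, SAA4 85.4 kb and SAA1 55.9 kb. TTR, the transthyretin gene, was 278 kb away, RBP4, which encodes the retinol carrier bound by transthyretin, 105 kb, and HP and HPX, the haptoglobin and hemopexin genes, 37.6 and 38.7 kb. In coagulation the distances were largest at F9 (3557 kb) and F11 (795 kb), and in complement at CFI (394 kb), C6 (255 kb) and C2 (239 kb). In all, 18 of the 54 genes (33.3%) were over 100 kb from a summit, against 34.9% of all protein-coding genes, and the median distance was 40.6 kb against 45.7 kb. Medians were 35.4 kb for carriers, 13.6 kb for coagulation, 61.4 kb for complement and 131 kb for the acute phase genes.

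The 1 kb limit did not divide a crowded range. The last gene inside it was PROS1, at 155 bp from its nearest start, and the first outside was SERPIND1, which encodes heparin cofactor II, at 1238 bp. Between 1 and 5 kb lay 4 of the 54 genes (7.41%), against 582 (2.91%) of all protein-coding genes. The SERPIND1 summit lay in an intron of the gene (pileup 13, fold enrichment 5.88). MBL2, the gene of mannose-binding lectin, had a summit 2075 bp upstream (pileup 14, fold enrichment 6.47) and another 7470 bp upstream (pileup 8, fold enrichment 4.79). ITIH2, a heavy chain of the inter-alpha-trypsin inhibitor family, had one 2579 bp upstream (pileup 10, fold enrichment 6.18). CP, the gene of the copper protein ceruloplasmin, had one 3515 bp upstream (pileup 10, fold enrichment 6.47). None of these summits had a start of any gene within 1 kb.

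Within gene bodies extended by 20 kb on both sides, 23 of the 54 genes held an HSF1 summit, or 42.6% (30.3% to 55.8%), and the share over all protein-coding genes was 42.4%. By role it was 8 of 18 carriers (44.4%), 9 of 16 coagulation genes (56.2%), 6 of 16 complement genes (37.5%) and 0 of 4 acute phase genes. The most summits were at C3, with 3, and A1BG, AMBP, F2, MBL2 and PROS1 had 2 each. Counting each summit once, there were 28 in 3.61 Mb, or 0.775 per 100 kb, against 0.371 over all protein-coding genes. The median gene length was 19.3 kb here and 27.5 kb over all protein-coding genes, so the windows also differed in how much of them was flank. Beyond the summits at their own starts, 15 genes held 17 further summits. Of these, 2 were the summits at the starts of F10 and ORM1, seen from F7 and ORM2, so 15 add to the 13 above, and 7 of the 15 lay at the start of a protein-coding gene that is not among the 54. The highest were at GRK6 beside F12 (pileup 42, fold enrichment 11) and at LPCAT3 within the window of C1S (pileup 22, fold enrichment 11.4). Beside TF the summit lay at SRPRB (pileup 8, fold enrichment 5.7), 59605 bp from the canonical TF start, and F7, the gene of factor VII, held only the summit of its neighbour F10. The other 8 had no start of any gene within 1 kb. Besides those between 1 and 5 kb, they included one 6328 bp upstream of SERPINF2, the alpha-2-antiplasmin gene (pileup 15, fold enrichment 7.84), and one 19978 bp downstream of the start of PROC, the protein C gene (pileup 14, fold enrichment 7.58).

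H3K27ac was not found at the start of any of the 54 genes, which allows a share of up to 5.56%, while 3.31% of all protein-coding genes had it (664 genes). An absence could not be told from the background share at this depth. In gene bodies with 20 kb on both sides, MASP2, a protease gene of the lectin pathway, was the only one of the 54 with an H3K27ac summit (1.85%, 0.328% to 9.77%), against 7.39% of all protein-coding genes. That summit (pileup 13, fold enrichment 7.61) lay 76 bp from the start of the neighbouring gene TARDBP, 16.5 kb from the nearest MASP2 start, and an HSF1 peak overlapped it. None of the 13 HSF1 peaks at plasma protein gene starts overlapped an H3K27ac peak, which allows a share of up to 23.1%, against 366 of 4424 (8.27%, 7.5% to 9.12%) at all coding gene starts. Altogether 31 of the 54 genes had no summit of either library in the extended window, the same 31 that lacked an HSF1 summit there. Over all protein-coding genes, 11531 of 20033 lacked an HSF1 summit there, so the shares with one were near each other (42.6% and 42.4%). Genes without a summit of either library were not counted over all protein-coding genes.

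Housekeeping genes had higher shares, which are set beside the share of their promoter class further on. HSF1 summits lay at the starts of 33 of 84 cytosolic ribosomal protein genes (39.3%, 29.5% to 50%) and 16 of 39 proteasome subunit genes (41%, 27.1% to 56.6%), and their intervals overlapped that of the plasma protein genes only in part. H3K27ac summits lay at 9 (10.7%) and 3 (7.69%) of them. Apolipoprotein genes, another secreted liver family, had HSF1 at 3 of 15 starts (20%, 7.05% to 45.2%) and H3K27ac at none: APOA2 (fold enrichment 7.14), APOA5 (6.07) and APOB (4.69).

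**Figure D3:**
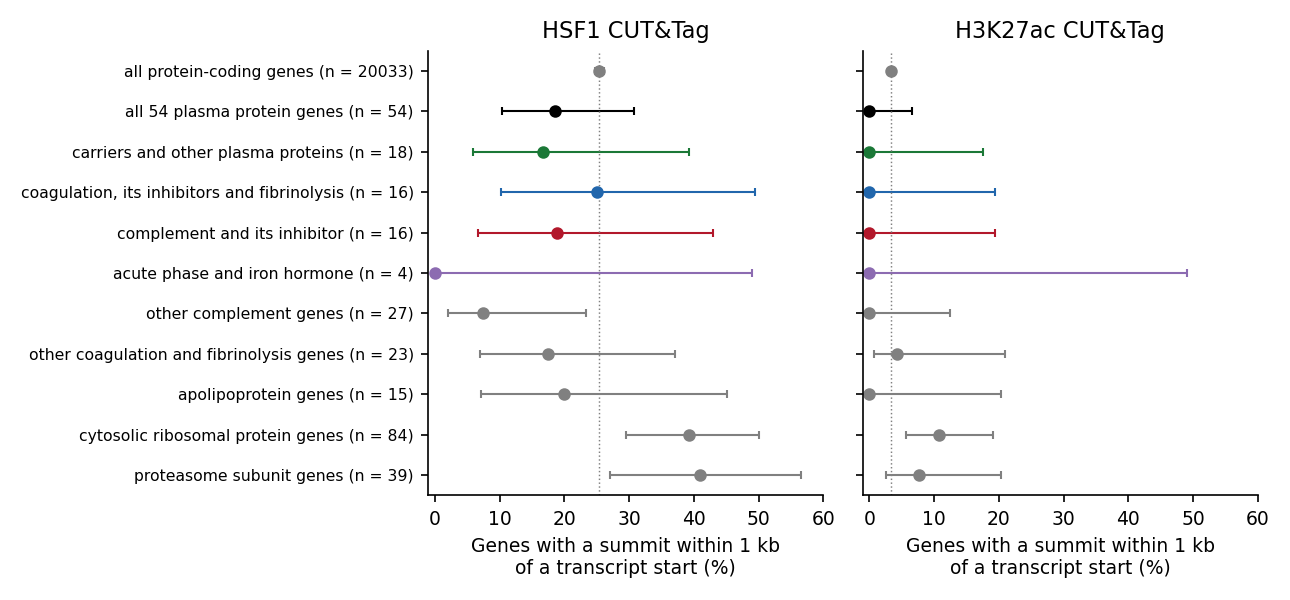
Share of genes, in percent, with a summit within 1 kb of a transcript start for HSF1 (left) and H3K27ac (right) in 1 library each. Points are shares, bars are 95% Wilson intervals over genes, the dotted line is the share of all 20033 protein-coding genes, and the plasma protein genes lie at 18.5% for HSF1 and at 0 for H3K27ac.

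Other genes of the same pathways, taken from a list that does not include the 54, were also counted. In complement, 2 of 27 had an HSF1 summit at a start (7.41%, 2.06% to 23.4%): CD55, a membrane inhibitor of complement (fold enrichment 9.14), and CLU, the clusterin gene (7.98). In coagulation and fibrinolysis there were 4 of 23 (17.4%, 6.98% to 37.1%). PLAUR, the urokinase receptor gene, had a pileup of 42 and a fold enrichment of 11.4. F8, the factor VIII gene, had 8.62, at an alternative start beside FUNDC2. ANXA2, a cell surface receptor for plasminogen together with S100A10, had 7.69, and LMAN1, the cargo receptor for factors V and VIII, had 6. S100A10 itself had an H3K27ac summit but no HSF1 summit at a start.

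The promoters of the plasma protein genes differed in base composition from most promoters. From 250 bp before to 50 bp after the canonical start, their median GC content was 53.3%, against 63.7% over all protein-coding genes. Their median ratio of observed to expected CpG was 0.222 against 0.775. Promoters were divided into low (ratio below 0.4), middle (0.4 to 0.6) and high (above 0.6) CpG classes. In the low class were 47 of the 54 genes (87%), against 24.2% of all protein-coding genes. The high class held RBP4 (0.979), TF (0.825) and PROS1 (0.649), and the middle class A1BG, AGT, C1R and HAMP.

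HSF1 at starts varied with this class over the whole genome. It was at 34.5% of the 13488 high CpG genes, 14.7% of the 1694 middle ones and 3.9% of the 4851 low ones. Among the low CpG plasma protein genes it was at 8 of 47, or 17% (8.89% to 30.1%), and among the 4804 other low CpG genes at 181, or 3.77% (3.27% to 4.34%). These intervals did not overlap, and no test was made. The other low CpG genes were not limited to genes active in Huh7 cells, because expression was not analysed. Whether the shares differ among active genes was not tested. The 8 were AMBP and ORM1 of 14 low CpG carriers, F2, F5 and F10 of 15 coagulation genes, and C3, C5 and SERPING1 of 15 complement genes, with none of 3 acute phase genes. In the middle class 1 of 4 plasma protein genes had a summit (AGT), and in the high class 1 of 3 (PROS1). At C5 the summit lay at the GC-rich start shared with CNTRL and not at the low CpG canonical start. When only canonical starts were counted, 7 of the 47 (14.9%, 7.41% to 27.7%) kept a summit, against 1.11% of all 4851 low CpG genes, which are 54 genes, and 0.978% of the 4804 others. These 7 include ORM1, whose peak may also hold tags from ORM2, and C3, whose peak had a pileup of 5. They also include SERPING1, whose summit lay 626 bp downstream of the canonical start, outside the stretch that set its class. The −log10 q-values of these C3 and SERPING1 peaks were 2.28 and 4.66, and the filter of at least 5 was not applied to this class. Of the other complement genes that are not among the 54, 0 of 21 low CpG ones had a summit, which allows a share of up to 14.3%. Of the other coagulation genes in this class 1 of 9 had one (11.1%, 1.99% to 43.5%), and of the apolipoprotein genes 2 of 13 (15.4%, 4.33% to 42.2%). Most housekeeping genes counted above were in the high class. There, HSF1 was at 33 of 83 ribosomal protein genes (39.8%, 29.9% to 50.5%) and 14 of 35 proteasome genes (40%, 25.6% to 56.4%). Both intervals include the 34.5% of all high CpG genes.

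Motifs in the promoters were counted on both strands as descriptions of sequence. Among the 54 promoters, 12 (22.2%, 13.2% to 34.9%) held CAAAGTCCA with at most 1 mismatch, an HNF4-type site, against 5.65% of all protein-coding promoters and 10.1% of low CpG ones. GTTAATNAT, an HNF1-type site, was in 3 (5.56%), those of C5, F13B and PLG, against 0.509% and 1.32%. TATAAA was in 12 (22.2%) against 9.71% and 23%. The promoters of ORM1 and ORM2, which are identical, were counted separately here and also among the 12 with CAAAGTCCA. CCAAT was in 24 (44.4%, 32% to 57.6%) against 36.1% of all protein-coding promoters and 37.6% of low CpG ones. Of the 10 genes with an HSF1 summit at a start, 4 had CCAAT in the promoter (40%, 16.8% to 68.7%). Of the other 44, 20 had it (45.5%, 31.7% to 59.9%). Over all protein-coding genes it was in 44.8% of promoters with a summit and 33.1% of those without. Both intervals include both of these shares. GAANNTTC, a pair of GAA units as in the heat shock element, was in none of the 10, which allows a share of up to 30%, and in 4 of the 54 (7.41%), between 5.47% of all promoters and 8.78% of low CpG ones. CCGGAAG was in 3 (5.56%, 1.91% to 15.1%), those of A1BG, AHSG and TF, of which only AHSG is in the low CpG class. The interval includes both the 14.1% of all promoters and the 2.02% of low CpG ones.

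Within 100 bp of the 13 summits themselves, GAANNTTC was absent, CCAAT was present at 3 and CAAAGTCCA with at most 1 mismatch at 2, F10 and ORM1. The 3 with CCAAT were AMBP, with 4 matches, F10 and the higher PROS1 peak. The surrounding DNA had a GC content of at least 50% at 12 of the 13, the exception being the lower PROS1 peak at 46.3%. The SERPING1 summit had 70.1% and the summit of C3 in GPR108 had 69.7%. The same counts are not given for the 4424 HSF1 peaks at coding gene starts. Whether these 13 summits differ from other HSF1 peaks in motifs or GC content was therefore not tested.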

How the data were processed

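Huh7 cells gave 1 HSF1 and 1 H3K27ac CUT&Tag library, and the peak lists that the authors deposited were used. The labels name Bowtie, Picard, deepTools and MACS2. Per the file headers, the authors used MACS 2.1.4 and hg38 positions, removed duplicate tags, extended tags to 200 bp and kept peaks below a p-value of 1e-05, one library at a time and with no control. The deposited pileup is an unscaled signal. The fold enrichment that the authors deposited is a ratio to local background. The deposited −log10 p-value and q-value columns served as descriptions and as a filter. The headers say that q-values were not calculated, and how the values in that column were made is not given in the sources used here. Depths are 2712212 kept HSF1 tags (75.2% of 3604911) and 896393 kept H3K27ac tags (5.7% of 15737890).

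Summits on chromosomes 1 to 22, X and Y were compared with GENCODE release 44 transcript starts in Python 3.11.15 with numpy 2.4.6, pandas 2.3.3, scipy 1.17.1 and pysam 0.24.0, and plotted with matplotlib 3.10.9. Shares have 95% Wilson intervals. Beside a share of 0, the text gives the limit that a count of 0 allows, 3 of the total, and the plots draw Wilson intervals. The scripts were tested on 1000 simulated peaks at known places and passed 4 of 4 checks. No test was made, because there are no replicates. The H3K27ac ChIP-seq lists name hg19 in their headers and were not used. The RNA-seq was not analysed here. The surroundings of 1 peak are not reported here.

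The 54 genes, the lists and the tests were chosen with earlier results of these data known. Named genes are all with a summit within 1 kb of a start or between 1 and 5 kb, those with the most summits in the extended gene body, and listed pathway genes with a summit. Any other gene, such as those without a summit or with summits at a neighbouring gene, was named after its values were seen. Alternative windows, starts, peak filters and motif windows are described at the end.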

Additional observations from a re-analysis of the deposited data

How the results depend on the processing

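Over 30 alternatives to 7 results, 25 values stayed within the interval of the value reported or, for the median percentile of peak height, within 1 SD over the 13 peaks. The share of the 54 genes with an HSF1 summit at a start ran from 14.8% (−log10 q-value of at least 5) to 25.9% (within 5 kb). It was below that of all protein-coding genes in every setting but one: without genes that have a start of another gene within 1 kb, it was 20% of 40 genes against 16.7%. The share with an HSF1 summit in the gene body fell to 16.7% without flanks (all protein-coding genes 18%) and to 13% without summits near any start (8.86%). For H3K27ac it was 0 in both of these settings and 11.1% with flanks of 50 kb (11.3%). In the low CpG class the share with HSF1 was 17.6% with a window of 500 bp to both sides and 20% of 35 genes (2.29% of all) without genes that have a neighbouring start. These windows, and the canonical starts, were chosen for this class after seeing the data. No paired analysis was possible because each antibody had 1 library. The peaks have no control library, and the shallow H3K27ac library limits what its absences show.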

Other observations

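The low CpG genes with an HSF1 summit within 1 kb of their canonical start were 54 over the genome, 7 of which are among the plasma protein genes. The other 47 include further genes known for expression in liver, named after their values were seen. FGA and FGG, which encode fibrinogen chains, had fold enrichments of 6.36 and 8.72. SERPINA6, the gene of corticosteroid-binding globulin, had 4.92, and SELENOP, the gene of the plasma selenium carrier, had 7.56. The regulators CREB3L3 (8), NR5A2 (8.43) and NR0B2 (5.56), which act in liver lipid and bile acid metabolism, and HPN (6), the gene of the membrane protease hepsin, were also among them. Others, such as ZNF107 (8.55) and SPATC1L (13.9), are not known as liver genes. No liver gene list was counted over these 54.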
